A study of Mus musculus with 5 samples.

Results

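The 6 genes described here, *Col6a1*, *Col6a2*, *Col6a3*, *Col12a1*, *Col16a1* and *Col28a1*, encode chains of the beaded-filament collagens VI and XXVIII and of the fibril-associated collagens XII and XVI. They are 6 of the 21835 genes measured in cultured murine lung cancer-associated fibroblasts (CAFs), and all 6 were among the 12175 genes expressed highly enough to be tested. They were picked by name, with their values in these same samples already known. Their levels and fold-changes, and whether they passed the thresholds applied to all genes, are therefore given only as a description. CAF-vec, 2 samples labelled as wild-type control, carried the empty vector, and CAF-200, 3 samples, overexpressed the cluster of the microRNAs (miR) miR-200b, miR-200a and miR-429. According to the labels, the cluster in pLVX-Neo was brought into CAFs by lentiviral infection and the cells were kept under G418 for more than 2 weeks, in alpha-MEM with 10% serum. The study likewise names CAFs as the source of the sequenced RNA, but its methods give another resistance vector, name normal lung fibroblasts as the recipient cells in 1 sentence and state RNA in triplicate, so the vector, the recipient and the number of samples are given here as the labels have them. Each group stands for transduced cells of the line labelled CAF, and nothing states that the samples of a group came from separate cultures, so *p* values measure only the spread between these samples, which may be technical.

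The polyadenylated RNA was sequenced, and values are CPM (reads of a gene scaled to about the same total of reads in each sample), so the depth of each sample is unknown. Over the genes tested, the log2 difference between the 2 controls had an SD of 0.49. Between any 2 CAF-200 samples this SD was 0.19 to 0.20, so the listed values of the controls were the less alike. The columns of the groups also differed in form. In CAF-200, 6127 genes were listed at 0 in every sample and 0 genes in only some of them, against 7053 and 1205 genes in CAF-vec. Values barely above 0, such as *Col6a5* at 1.2e-05 CPM in CAF-200 1, were listed for 1100, 788 and 1012 genes in CAF-200 1, 2 and 3. CAF-vec 1 and 2 each held 0 such values. The part of this form in the smaller spread of CAF-200 was not tested. The SDs, errors and *p* values below rest on the values as listed. Of 10 fibroblast markers 9 were tested, from *Col1a2* at 2048 to 5185 CPM down to *Lum* at 3.24 and 4.02 CPM in CAF-vec, and *Fap* was at most 0.391 CPM, whereas the summed level of 9 epithelial markers was at most 0.452 CPM and that of 7 endothelial markers at most 1.06 CPM in any sample. *Epcam* was listed at 0 in 4 of the 5 samples, and *Cdh5* was at most 0.122 CPM. Of 8 leukocyte markers, summing to 8.34 to 9.40 CPM per CAF-vec sample and 12.2 to 12.9 CPM per CAF-200 sample, 3 were tested, and 1 of these was called higher, against 2.37% of all genes tested. *Lyz2*, lysozyme, rose by a log2 fold-change (log2FC, from CAF-vec to CAF-200) of 1.91 with a standard error (SE) of 0.206 (limma adjusted *p* = 0.00395), *Csf1r* and *Cd68* overlapped between the groups (log2FC -0.46 and -0.14, limma adjusted *p* = 0.250 and 0.758), and *Cd3e* was listed at 0 throughout. Of 6 Schwann cell markers, summing to 7.34 to 7.997 CPM per CAF-vec sample and 6.68 to 7.25 CPM per CAF-200 sample, 3 were tested and limma called 0, with 2 lower at an unadjusted *p* under 0.05, a threshold at which 27.6% of all genes tested were lower and 17.3% higher. *S100b*, 1 of these 2, was below 0.5 CPM in every CAF-200 sample and so was tested only through CAF-vec, and *Sox10* was listed at 0. *Mbp*, the highest of this list in CPM, was at 3.636 and 3.991 CPM in CAF-vec and at 4.441, 4.598 and 3.998 CPM in CAF-200 (log2FC 0.17, limma adjusted *p* = 0.315). The part of these markers in the results below was not tested. The genes of the 3 microRNAs have no row in the table, so their overexpression was not checked here. *Zeb1*, a transcription factor long known as a miR-200 target, was at 43.5 and 50.7 CPM in CAF-vec and at 37.8, 37.5 and 34.1 CPM in CAF-200 (log2FC -0.36, SE 0.107, limma adjusted *p* = 0.0504). *Zeb2*, its relative, overlapped between the groups, with a log2FC of -0.23 (limma adjusted *p* = 0.374).

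Collagen VI is made by fibroblasts throughout connective tissue, the lung interstitium included. Its α1, α2 and α3 chains join into a heterotrimer, which is stacked inside the cell and secreted to form beaded microfilaments close to the cell surface. Collagens XII and XVI belong to the fibril-associated collagens with interrupted triple helices (FACIT), which sit on fibrils of other collagens and link them to their surroundings. Collagen XXVIII has a short collagenous stretch between von Willebrand factor A domains, the domain type that collagen VI chains also carry, and is best known from peripheral nerve. A microRNA acts mainly through its seed, the bases near its 5′ end that pair with matching sites, mostly in the 3′ untranslated region (3′-UTR) of a messenger RNA, and lowers the level or the translation of that RNA.

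The mature microRNAs of the overexpressed cluster are shown because their seeds set which sites were looked for in the collagen transcripts. Sequences are from RefSeq (GRCm38.p6), all 3 on the minus strand of chromosome 4, written 5′ to 3′ with the seed (bases 2 to 8) in capitals.
miR-200b-3p (chr4:156055685-156055706): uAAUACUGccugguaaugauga
miR-429-3p (chr4:156053916-156053937): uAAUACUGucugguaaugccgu
miR-200a-3p (chr4:156054911-156054932): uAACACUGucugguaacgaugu
miR-200b-3p and miR-429-3p share their seed, whose 7-base match in a messenger RNA reads CAGTATT, and the seed of miR-200a-3p is matched by CAGTGTT.

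None of the 6 chains held either heptamer in its longest annotated 3′-UTR, and none held one in any other of its annotated 3′-UTRs (GENCODE M21, transcript strand only). These UTRs were 767 bases long in *Col6a1*, 1763 in *Col6a2*, 732 in *Col6a3*, 2178 in *Col12a1*, 1841 in *Col16a1* and 674 in *Col28a1*. Among all 12098 genes tested that have an annotated 3′-UTR, 16.5% held CAGTATT and 22.0% held CAGTGTT. Among genes whose UTR was within 20% of a chain's length, the share ranged from 6.72% (*Col28a1*) to 21.3% (*Col12a1*) for CAGTATT and from 10.2% to 26.5% for CAGTGTT. The same search found 5 CAGTATT and 4 CAGTGTT in the 2401-base UTR of *Zeb1*, and 5 and 4 in the 4941-base UTR of *Zeb2*. Absence of these letters from the annotated UTRs says nothing about shorter or imperfect pairing.

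In a search added after the data were seen, the part of the transcript before the 3′-UTR was read in the transcript with the longest coding part among those with an annotated 3′-UTR. Matches lay in *Col6a3* and *Col12a1*, all of them in coding exons, and they are shown with 10 bases on each side and the heptamer in capitals (GRCm38, minus strand).
Col6a3, exon 33 of 41, CAGTATT at chr1:90781884-90781890: ccctcttagaCAGTATTcagaacctcc
Col12a1, exon 6 of 66, CAGTATT at chr9:79703697-79703703: taacttaaatCAGTATTaccgaagaga
Col12a1, exon 11 of 66, CAGTGTT at chr9:79697432-79697438: aggacggcttCAGTGTTcctataactg
Col12a1, exon 40 of 66, CAGTGTT at chr9:79641504-79641510: cctatgacgtCAGTGTTtatgcacagt
These are the longest messages of the set, and of tested genes within 20% of the *Col12a1* length before the UTR, 41.2% held CAGTATT and 55.1% held CAGTGTT there. For lengths near that of *Col6a3*, the share with CAGTATT was 39.1%.

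The chains did not move as a group. *Col6a1*, *Col6a2* and *Col16a1* were lower in every CAF-200 sample than in either CAF-vec sample, *Col6a3* and *Col28a1* were higher in every CAF-200 sample, and *Col12a1* overlapped between the groups. Over all genes tested, 37.3% lay wholly below and 24.3% wholly above in CAF-200. A gene was called when limma, a linear model fitted to log2(CPM + 0.5) over all 12175 genes, gave a Benjamini-Hochberg adjusted *p* under 0.01 and a log2FC beyond 1. By this rule 2 chains (*Col6a1* and *Col6a2*) were called lower, where the background was 2.35% of genes tested, and 1 chain (*Col28a1*) was called higher, where it was 2.37%. Nothing is read from these counts, since the chains were selected on this contrast. The median log2FC was -0.43 over the 6 chains and -0.09 over all genes tested. In bulk RNA, fewer cells making a message and less message per cell cannot be told apart.

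**Figure D1:**
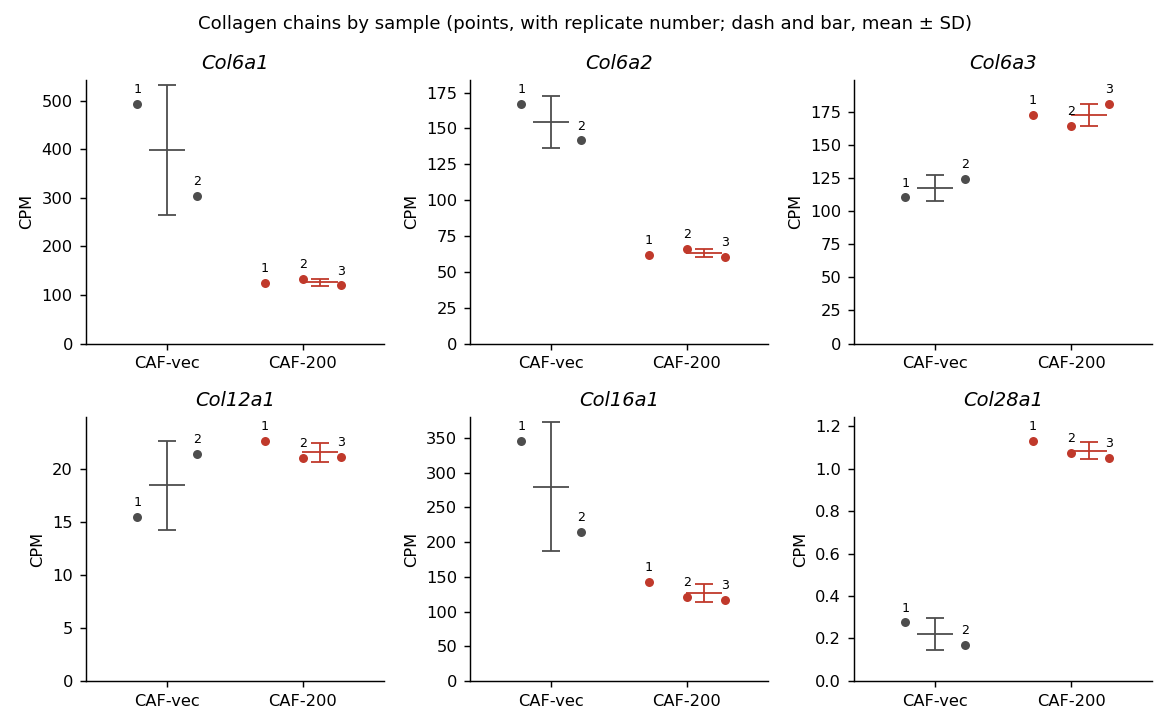
CPM (linear axis from 0) of each of the 6 collagen chains in the 2 CAF-vec samples (grey) and the 3 CAF-200 samples (red). Points are samples with their replicate number, and the dash with its bar is the group mean ± SD. All CAF-200 points lie below both CAF-vec points for Col6a1, Col6a2 and Col16a1, above them for Col6a3 and Col28a1, and on both sides of CAF-vec 2 for Col12a1, and the CAF-vec points of Col6a1 and Col16a1 lie far apart.

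*Col6a1* (ENSMUSG00000001119, chromosome 10 of GRCm38, 76708792 to 76726168, minus strand) encodes the α1 chain of collagen VI, which takes part in every heterotrimer. CAF-vec 1 and 2 held 494 and 304 CPM of it, and CAF-200 1, 2 and 3 held 126, 133 and 120.0 CPM. The CAF-200 samples lay close together and well below both controls, which themselves lay far apart. The group means were 399 ± 134 CPM (SD, n = 2) and 126 ± 6.66 CPM (SD, n = 3), a log2FC of -1.62 (SE 0.209), which placed the gene 83rd from the lowest of all 12175 genes tested. The mean in CAF-vec was 3.16 times that in CAF-200. The level in CAF-vec 1 was 1.62 times that in CAF-vec 2. Set against CAF-vec 2 alone, the lower of these controls, the log2FC was -1.27, and against CAF-vec 1 alone it was -1.97. Without the filter on low values, which raised the number of genes tested to 16044, *Col6a1* was no longer called.

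*Col6a2* (ENSMUSG00000020241, chromosome 10 of GRCm38, 76595762 to 76623630, minus strand), whose α2 chain joins the same heterotrimer, was at 167 and 142 CPM in CAF-vec and at 62.0, 66.2 and 60.6 CPM in CAF-200. All samples of a group were near each other, and the groups were well apart. The means were 154 ± 18.1 CPM (SD, n = 2) and 62.9 ± 2.90 CPM (SD, n = 3), with a log2FC of -1.28 (SE 0.106), a smaller error than that of *Col6a1*. The mean in CAF-vec was 2.45 times that in CAF-200.

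*Col6a1* and *Col6a2* lie next to each other on chromosome 10, in the same orientation and 85161 bases apart, with no other gene of the table between them. On the far side of *Col6a2*, the nearest gene tested was *Lss*, lanosterol synthase of the cholesterol pathway. *Lss* was at 24.1 and 26.4 CPM in CAF-vec and at 10.4, 11.1 and 8.49 CPM in CAF-200. It was lower in CAF-200, with a log2FC of -1.30 (SE 0.137, limma adjusted *p* = 0.00377). On the far side of *Col6a1*, *Pcbp3*, a poly(C)-binding protein, had a log2FC of 0.34 (limma adjusted *p* = 0.111).

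*Col6a3* (ENSMUSG00000048126, chromosome 1 of GRCm38, 90765923 to 90843971, minus strand) encodes the α3 chain, by far the largest of the collagen VI chains described here, whose C-terminal fragment endotrophin is released from the secreted protein. It was at 110.4 and 124 CPM in CAF-vec and at 173, 164 and 181 CPM in CAF-200. This was the opposite direction to its partner chains, and the groups did not overlap. The means were 117 ± 9.84 CPM (SD, n = 2) and 173 ± 8.51 CPM (SD, n = 3), a log2FC of 0.56 (SE 0.0990), which missed both the fold and the adjusted *p* needed for a call. A gene model of uncertain status overlaps *Col6a3* on the same strand. The mean in CAF-200 was 1.47 times that in CAF-vec. Its nearest tested neighbours, *Cops8*, a COP9 signalosome subunit, and *Lrrfip1*, had log2FC of 0.17 (limma adjusted *p* = 0.340) and -0.26 (limma adjusted *p* = 0.0839).

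The balance of the 3 chains within a sample is independent of how a sample was scaled. The CPM ratio of *Col6a1* to *Col6a2* was 2.96 and 2.15 in CAF-vec and 2.03, 2.01 and 1.98 in CAF-200. The CAF-200 ratios lay just below that of CAF-vec 2, so both chains were lower by nearly the same factor when compared with that control. The ratio of *Col6a1* to *Col6a3* was 4.48 and 2.45 in CAF-vec but 0.727, 0.812 and 0.662 in CAF-200. The ratio of *Col6a2* to *Col6a3* was 1.51 and 1.14 in CAF-vec and 0.359, 0.403 and 0.334 in CAF-200. For both ratios the groups did not overlap, and the order of the chains in CPM turned over, although on the linear scale the controls differed from each other in the ratio of *Col6a1* to *Col6a3* by more than the nearer control differed from CAF-200 2. On the log2 scale the SD of that ratio was 0.62 in CAF-vec and 0.15 in CAF-200. The mean log2 ratio changed by -2.18 for *Col6a1* over *Col6a3* and by -1.85 for *Col6a2* over *Col6a3*, against -0.33 for *Col6a1* over *Col6a2*.

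Levels of different genes can be compared only per length, and CPM were therefore divided by the length of the union of a gene's exons in kb. Of the summed CPM per kb of the 3 chains, *Col6a3* held 6.49% and 10.7% in CAF-vec and 28.6%, 26.3% and 30.4% in CAF-200. *Col6a1* held 79.4% and 71.7% in CAF-vec and 56.7%, 58.4% and 55.0% in CAF-200. *Col6a2* kept a share of 14.1% and 17.6% against 14.7%, 15.3% and 14.6%, so its groups overlapped. *Col6a1* was still the most abundant chain per kb in all 5 samples. With the coding length in place of all exons, the mean share of *Col6a3* was 6.49% ± 2.17 (SD, n = 2) in CAF-vec and 22.3% ± 1.71 (SD, n = 3) in CAF-200.

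**Figure D2:**
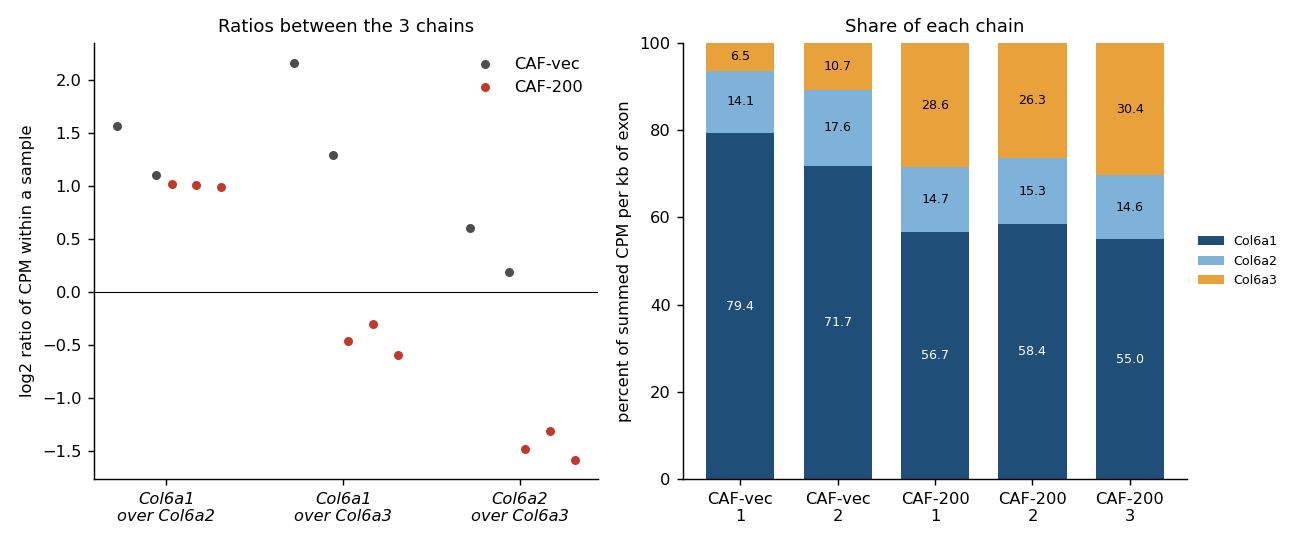
Left, log2 ratio of the CPM of 2 collagen VI chains within each sample (points, CAF-vec grey, CAF-200 red). Right, percent of the summed CPM per kb of exon that each of the 3 chains held in each sample. The ratios over Col6a3 lie above 0 in both CAF-vec samples and below 0 in all 3 CAF-200 samples, and the share of Col6a3 goes from 6.49% and 10.7% to between 26.3% and 30.4%.

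The other chains of collagen VI, which can take the place of α3, were scarce. *Col6a4*, the highest of these 3 in CPM, was at 0.0959 and 0.119 CPM in CAF-vec and at 0.151, 0.282 and 0.163 CPM in CAF-200. *Col6a5* and *Col6a6* were also below the level required for testing, and no chain of this list exceeded 0.282 CPM in any sample.

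*Col12a1* (ENSMUSG00000032332, chromosome 9 of GRCm38, 79598991 to 79718831, minus strand) encodes collagen XII, a homotrimer with a very large non-collagenous part that binds the surface of collagen I fibrils. It was at 15.5 and 21.4 CPM in CAF-vec and at 22.6, 21.0 and 21.1 CPM in CAF-200. CAF-vec 2 lay among the CAF-200 samples and CAF-vec 1 lay below them all. The means were 18.4 ± 4.19 CPM (SD, n = 2) and 21.6 ± 0.910 CPM (SD, n = 3), a log2FC of 0.24 (SE 0.150). The value rests on CAF-vec 1, without which it was 0.010, while without CAF-vec 2 it was 0.47. An annotated antisense gene overlaps *Col12a1*, and since the counting is not stated to use strand, reads of the pair may not have been told apart. Its nearest tested neighbours were *Cd109*, a protease-inhibitor-like surface protein, with a log2FC of 0.11 (limma adjusted *p* = 0.419), and *Cox7a2*, a subunit of cytochrome c oxidase, with 0.93 (limma adjusted *p* = 0.0647).

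*Col16a1* (ENSMUSG00000040690, chromosome 4 of GRCm38, 130047840 to 130099283, plus strand) encodes collagen XVI, a FACIT of fibrils and fibrillin-rich microfibrils. It was at 346 and 215 CPM in CAF-vec and at 142, 121 and 117 CPM in CAF-200. As for *Col6a1*, CAF-vec 1 was the highest sample, 1.61 times CAF-vec 2, and every CAF-200 sample lay below both. The means were 280.1 ± 92.6 CPM (SD, n = 2) and 127 ± 13.7 CPM (SD, n = 3), a log2FC of -1.11 (SE 0.217), and the adjusted *p* threshold was not met. Against CAF-vec 1 alone the log2FC was -1.45 and both thresholds were met, whereas against CAF-vec 2 alone it was -0.76. The major fibrillar chain *Col1a1* also differed between the controls, at 4613 CPM in CAF-vec 1 and 2003 CPM in CAF-vec 2, a ratio of 2.30. The part of this difference between controls in the fold-changes was not tested. *Pef1*, a calcium-binding protein 3274 bases beyond the 3′ end of *Col16a1*, was at 67.6 and 66.3 CPM in CAF-vec and at 45.0, 45.7 and 41.2 CPM in CAF-200 (log2FC -0.60, limma adjusted *p* = 0.00789). *Adgrb2*, an adhesion receptor on the other side, overlapped between the groups (log2FC -0.46, limma adjusted *p* = 0.140).

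*Col28a1* (ENSMUSG00000068794, chromosome 6 of GRCm38, 7997808 to 8192617, minus strand) encodes collagen XXVIII. It was by far the least abundant chain, at 0.276 and 0.168 CPM in CAF-vec and at 1.13, 1.07 and 1.05 CPM in CAF-200. The CAF-200 samples were nearly equal and all well above the controls. The means were 0.222 ± 0.0760 CPM (SD, n = 2) and 1.09 ± 0.0404 CPM (SD, n = 3), a ratio of 4.89, and the log2FC of 1.14 (SE 0.152) understates it because 0.5 CPM was added before taking logs. Since a gene needed 0.5 CPM in 2 samples to be tested, *Col28a1* was tested only through the CAF-200 samples and could only come out higher. With 1 CPM added it was at 0.77, short of the fold for a call, and with 0.1 CPM added it was at 1.90. Its neighbour *C1galt1*, the enzyme that makes core 1 O-glycans, was at 6.75 and 10.1 CPM in CAF-vec and at 19.9, 21.4 and 17.8 CPM in CAF-200, and rose (log2FC 1.20, SE 0.185, limma adjusted *p* = 0.00883). *Mios*, of the amino acid sensing GATOR2 complex, lies 16604 bases away on the other side and had a log2FC of 0.41 (limma adjusted *p* = 0.0364).

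**Figure D3:**
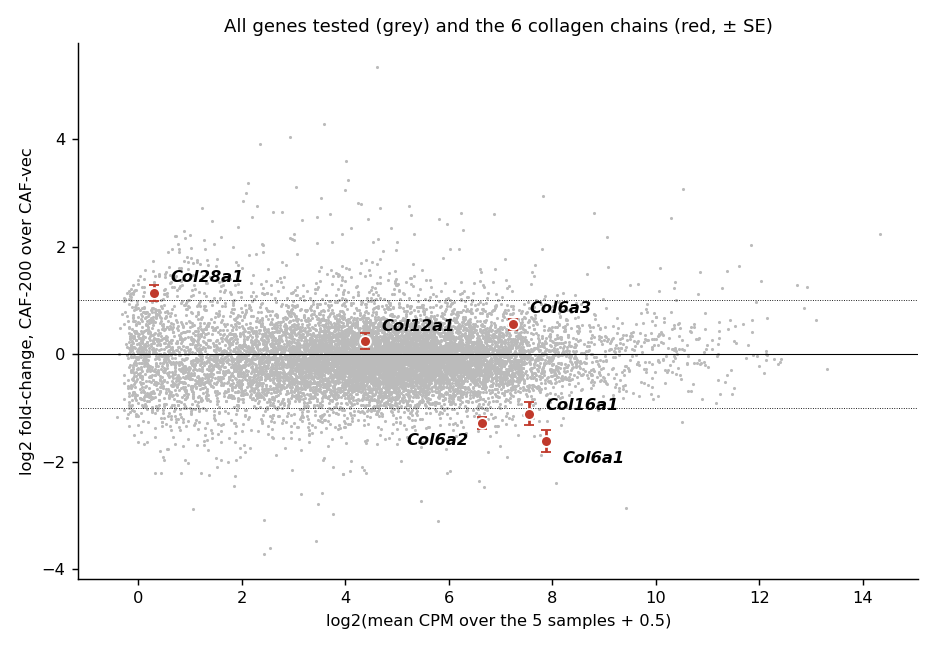
Log2FC (CAF-200 over CAF-vec) against log2(mean CPM over the 5 samples + 0.5) for all 12175 genes tested (grey), with the 6 collagen chains in red (± SE). Dotted lines mark log2FC of 1 and -1. Col6a1 (-1.62), Col6a2 (-1.28) and Col16a1 (-1.11) lie at the lower edge among abundant genes, and Col28a1 (1.14) lies at the low end of expression.

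Per kb of exon, the order in CAF-vec was *Col6a1* (91.1 ± 30.7), *Col16a1* (41.5 ± 13.7), *Col6a2* (18.5 ± 2.17), *Col6a3* (9.81 ± 0.823), *Col12a1* (1.21 ± 0.275) and *Col28a1* (0.0453 ± 0.0155 CPM per kb, SD, n = 2). No neighbours in this order overlapped in their samples. In CAF-200, *Col6a1* (28.8 ± 1.52) and *Col16a1* (18.8 ± 2.03) were still the highest, but *Col6a3* (14.4 ± 0.712) stood above *Col6a2* (7.56 ± 0.348 CPM per kb, SD, n = 3). *Col12a1* (1.42 ± 0.0597) and *Col28a1* (0.221 ± 0.00823 CPM per kb, SD, n = 3) followed, again without overlap. The place of *Col6a2* depends on the length used, since its exon union of 8326 bases is much longer than its coding part of 3102 bases. Per kb of coding length, *Col6a2* in CAF-200 (20.3 ± 0.935) stood above *Col6a3* (17.5 ± 0.864 CPM per kb, SD, n = 3), and in CAF-vec its samples overlapped those of *Col16a1*.

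For each chain, the 3 genes with the most similar pattern were found by the Euclidean distance between log2(CPM + 0.5) profiles over the 5 samples, each centred on its own mean. Nearest to *Col6a1* were *Ppil6* (distance 0.122), *Khk*, ketohexokinase of fructose metabolism (0.160), and *Rragd*, a Rag GTPase of amino acid sensing (0.162). *Ppil6* was at 1.96 and 0.875 CPM in CAF-vec and at 0.0708, 0.122 and 0.0818 CPM in CAF-200, so it was tested only through CAF-vec. At such low values the 0.5 CPM added shrinks a change, and its fall in CPM was larger than that of *Col6a1*. *Khk* was at 73.6 and 47.5 CPM in CAF-vec and at 21.4, 20.2 and 18.1 CPM in CAF-200, with CAF-vec 1 again the highest sample. Nearest to *Col6a2* were *Neu1*, the lysosomal sialidase (0.0203), *Mapk8ip1*, a JNK scaffold (0.0503), and *Tnxb*, tenascin-X (0.0508). *Neu1* was at 21.5 and 18.4 CPM in CAF-vec and at 7.63, 8.26 and 7.50 CPM in CAF-200. *Col6a3* was most like *Asap2* (0.0466), *Ntn4*, the basement membrane protein netrin-4 (0.0517), and *Parvb*, β-parvin of focal adhesions (0.0573). *Col12a1* was most like *Snx6*, a sorting nexin (0.0561), *Slc35a3*, a Golgi UDP-GlcNAc transporter (0.0570), and *Pik3r3*, a regulatory subunit of phosphoinositide 3-kinase (0.0575). *Col16a1* was most like *Sh3d21* (0.0950), *Megf6* (0.0977) and *Mvp*, the major vault protein (0.122). *Megf6* was at 1.12 and 0.537 CPM in CAF-vec and at 0.161, 0.0923 and 0.0921 CPM in CAF-200. Like *Ppil6* and *Tnxb*, *Sh3d21* and *Megf6* were under 0.5 CPM in every CAF-200 sample. They too were tested only through CAF-vec, with their changes shrunk by the 0.5 CPM added. *Col28a1*, whose own change is shrunk by the 0.5 CPM added, was most like *Mapkapk3*, a p38-activated kinase (0.0774), *Atad5*, which unloads PCNA from replicated DNA (0.0825), and *Mmp16*, a membrane-type metalloproteinase (0.0842). Among the chains themselves the smallest distances were 0.422 for *Col6a3* and *Col12a1*, 0.444 for *Col6a2* and *Col16a1* and 0.488 for *Col6a1* and *Col6a2*, all farther than the nearest other genes.

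Related genes were read from lists drawn up by function, with 71 genes in all, of which 49 were tested. At both thresholds, 1 was lower and 3 were higher in CAF-200, where the background was 2.35% and 2.37% of genes tested. At the adjusted *p* alone 5 passed, near the background of 10.0%. The median log2FC of the 49 genes was -0.25, against -0.09 for all genes tested. All 4 calls fell in the list of matrix proteins known to bind collagen VI or XII, of which 8 of 14 were tested, with a median log2FC of 0.55.

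*Dcn*, decorin, a small proteoglycan that binds collagen VI and fibrillar collagen, was at 7.67 and 8.18 CPM in CAF-vec and at 51.0, 61.5 and 56.7 CPM in CAF-200. It rose by a log2FC of 2.75 (SE 0.110, limma adjusted *p* = 0.000837). *Lum*, lumican, a related keratan sulphate proteoglycan, was at 3.24 and 4.02 CPM against 26.5, 32.3 and 27.1 CPM, a log2FC of 2.82 (SE 0.140, limma adjusted *p* = 0.000929). *Tgfbi*, a secreted protein that binds collagen VI, rose from 0.992 and 0.407 to 7.01, 6.01 and 6.12 CPM (log2FC 2.56, SE 0.230, limma adjusted *p* = 0.00290). It reached 0.5 CPM in only 1 CAF-vec sample, so it was tested only through CAF-200, where it was high. *Tnxb*, which tethers collagen fibrils, was at 1.94 and 1.61 CPM in CAF-vec and at 0.411, 0.453 and 0.413 CPM in CAF-200, with a log2FC of -1.29 (SE 0.147, limma adjusted *p* = 0.00452). All its CAF-200 values lay under 0.5 CPM, so it was tested only through CAF-vec and could only come out lower, and with 1 CPM added its log2FC was -0.96 and it was not called. Without any filter on low values, *Tgfbi* and *Tnxb* were both called (limma adjusted *p* = 0.00626 and 0.00506). *Bgn*, biglycan, the highest of this list in CPM and the partner that organizes collagen VI filaments with decorin, was at 2766 and 4038 CPM in CAF-vec and at 5385, 5123 and 5455 CPM in CAF-200 (log2FC 0.67, limma adjusted *p* = 0.0573). An annotated pseudogene and a small nuclear RNA gene overlap *Tnxb* on the other strand.

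The collagens that these chains associate with showed no call. Of the 11 fibrillar chains, 8 were tested, with a median log2FC of -0.24. Limma called 0 of them, and 2 were lower and 2 higher at an unadjusted *p* under 0.05, near the shares of all genes tested (27.6% and 17.3%). *Col27a1*, 1 of the 2 lower, was tested only through CAF-vec, since it reached 0.5 CPM in only 1 CAF-200 sample. *Col1a2*, the highest in CPM though not corrected for its length, was at 5185 and 2567 CPM in CAF-vec and at 2284, 2182 and 2048 CPM in CAF-200 (log2FC -0.75, SE 0.304, limma adjusted *p* = 0.112). *Col3a1* was at 76.9 and 35.9 CPM against 114, 108 and 99.9 CPM (log2FC 1.02, limma adjusted *p* = 0.0542), so the type I and type III chains lay on different sides of 0. Of 8 other FACIT chains, 7 were in the table and 2 were tested. Limma called 0 of these, and both were lower at an unadjusted *p* under 0.05, as were 27.6% of all genes tested. *Col20a1*, the higher of them in CPM, was at 10.2 and 11.0 CPM in CAF-vec and at 7.47, 6.42 and 6.55 CPM in CAF-200 (log2FC -0.61, SE 0.112, limma adjusted *p* = 0.0141). *Col14a1*, a close relative of *Col12a1*, was at most 0.0613 CPM.

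Of the 10 collagen receptors, 9 were tested. Limma called 0 of them, and 3 were lower and 2 higher at an unadjusted *p* under 0.05, near the shares of all genes tested (27.6% and 17.3%). *Itgb1*, the β1 subunit shared by all collagen-binding integrins, was at 639 and 585 CPM in CAF-vec and at 892, 867 and 938 CPM in CAF-200 (log2FC 0.55, SE 0.108, limma adjusted *p* = 0.0161). *Ddr1*, a discoidin domain receptor tyrosine kinase that collagens activate, was at 283 and 173 CPM in CAF-vec and at 98.8, 105 and 95.8 CPM in CAF-200 (log2FC -1.14, SE 0.209, limma adjusted *p* = 0.0136). *Antxr1*, an anthrax toxin receptor that binds collagen VI, was at 42.3 and 42.9 CPM against 59.4, 54.9 and 56.7 CPM (log2FC 0.42, limma adjusted *p* = 0.0169). All CAF-200 samples lay below both controls for 3 receptors and above them for 4, against 37.3% and 24.3% of all genes tested. *Itga10*, 1 of these 4, was below 0.5 CPM in both controls and so was tested only through CAF-200.

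Of the 25 genes for making and processing collagen, 22 were tested, with a median log2FC of -0.27. Limma called 0 of them, and 9 were lower and 3 higher at an unadjusted *p* under 0.05, against 27.6% and 17.3% of all genes tested. Their highest member in CPM, *Pcolce*, which enhances the removal of the C-terminal propeptide of fibrillar procollagens, was at 2281 and 1788 CPM in CAF-vec and at 1301, 1276 and 1209.9 CPM in CAF-200 (log2FC -0.68, SE 0.150, limma adjusted *p* = 0.0226). *P4ha3*, a catalytic subunit of prolyl 4-hydroxylase, was the gene of this list that passed the adjusted *p*, at 20.4 and 16.5 CPM in CAF-vec and at 36.7, 34.8 and 34.2 CPM in CAF-200. Its log2FC of 0.92 (SE 0.116, limma adjusted *p* = 0.00566) was short of 1. Counted over the list, 12 genes had all CAF-200 samples below both controls and 3 had them all above, against 37.3% and 24.3% of all genes tested.

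**Figure D4:**
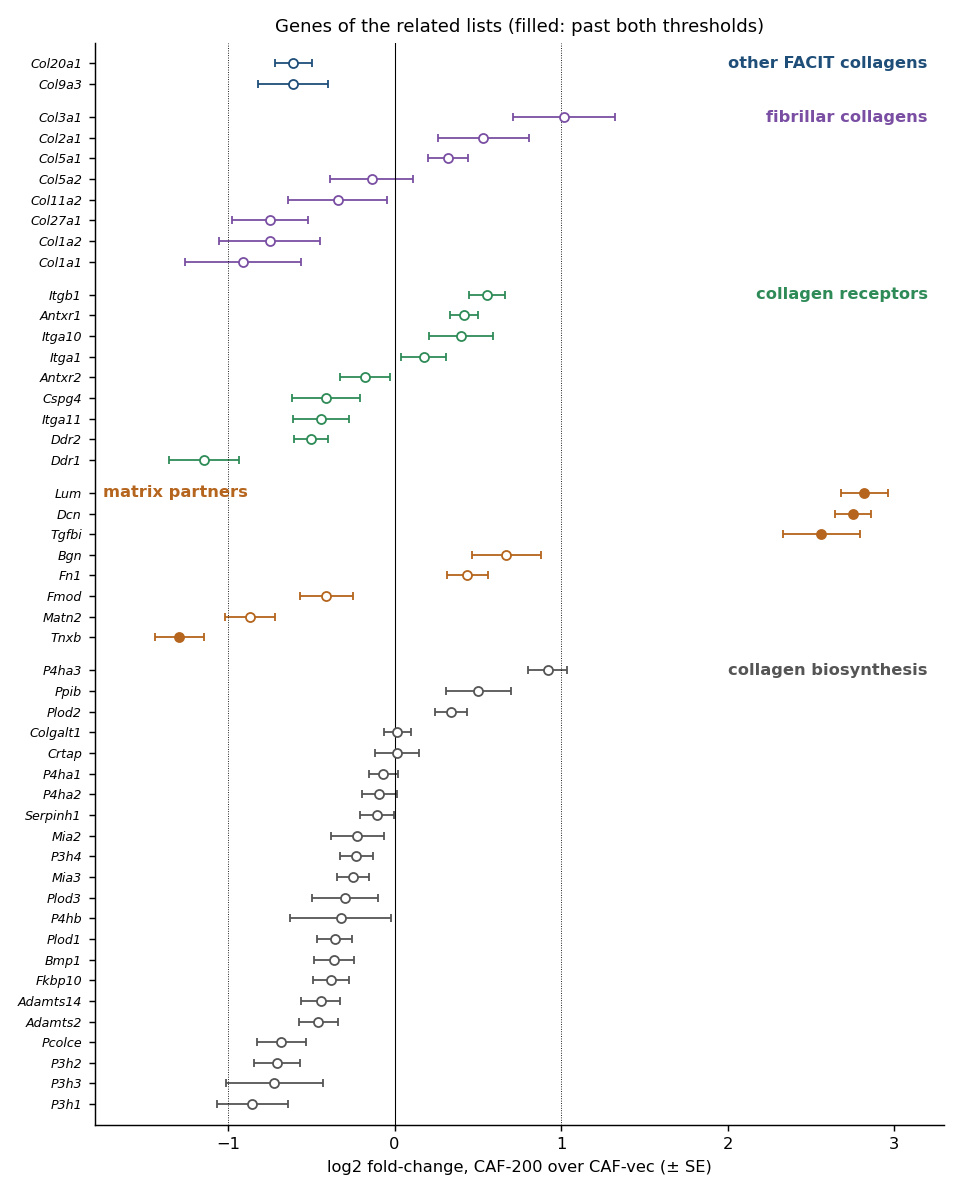
Log2FC (CAF-200 over CAF-vec, ± SE) of the 49 tested genes in the related lists, which stand in separate blocks. Filled points passed both thresholds, and dotted lines mark 1 and -1. Only Lum, Dcn, Tgfbi and Tnxb are filled, and the 22 genes of collagen synthesis lie between -0.85 and 0.92.

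Markers of contractile cells are given beside the collagens. Of 7 smooth muscle and pericyte markers, whose summed level was 157 to 171 CPM per CAF-vec sample and 1011 to 1120 CPM per CAF-200 sample, 5 were tested and 3 rose, against 2.37% of all genes tested, while *Des*, desmin, and *Cspg4* overlapped between the groups (log2FC 0.02 and -0.41, limma adjusted *p* = 0.951 and 0.173). *Acta2*, smooth muscle actin, was at 92.8 and 126 CPM in CAF-vec and at 661, 653 and 706 CPM in CAF-200 (log2FC 2.63, limma adjusted *p* = 0.00123), whereas *Myh11*, the smooth muscle myosin heavy chain, was at most 0.0692 CPM. The study reports the other direction for the actin protein, with weaker staining in CAF-200, and lower RNA of most CAF markers by RT-qPCR. The difference was not examined here. *Tagln* and *Cnn1* also rose, with log2FC of 2.94 (limma adjusted *p* = 0.00182) and 2.79 (limma adjusted *p* = 0.000929). Of 9 fibroblast markers tested 3 rose, *Dcn*, *Lum* and *Thy1*, the last with a log2FC of 1.46 (limma adjusted *p* = 0.00290), and 0 were called lower. All CAF-200 samples lay below both controls for 3 of the 9 (*Col1a1*, *Col1a2* and *Pdgfrb*) and above them for 4 (*Col3a1* with those that rose), against 37.3% and 24.3% of all genes tested. At an unadjusted *p* under 0.05, 2 were lower, *Col1a1* and *Pdgfrb* (log2FC -0.91 and -0.25, limma adjusted *p* = 0.0982 and 0.0776), and 4 higher, against 27.6% and 17.3%. Their part in the collagen values was not tested.

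The calls depended on which samples were used. All 3 calls among the chains were lost whichever of the CAF-200 samples was left out. In those fits limma called 0 genes lower and 0 or 1 (*Cxcl14*) higher over all genes tested. At an unadjusted *p* under 0.05, limma still gave 2316 to 2552 lower and 1505 to 1558 higher. The fold-changes hardly moved in those fits, lying between -1.65 and -1.58 for *Col6a1* and between -1.32 and -1.26 for *Col6a2*. Without CAF-vec 2, 3 chains were called lower (*Col16a1* with *Col6a1* and *Col6a2*) and 7 related genes were lower (*Col1a1*, *Col1a2*, *Ddr1*, *Matn2*, *P3h1*, *P3h3* and *Tnxb*). Without CAF-vec 1, 5 related genes were higher (*Col3a1*, *P4ha3*, *Dcn*, *Lum* and *Tgfbi*). In fits without a CAF-vec sample, the spread of the lone control is assumed to be that of CAF-200. Centring each sample on its median changed the split over all genes from 286 lower and 289 higher to 228 lower and 365 higher, and left the calls among the chains at 2 lower and 1 higher.

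**Figure D5:**
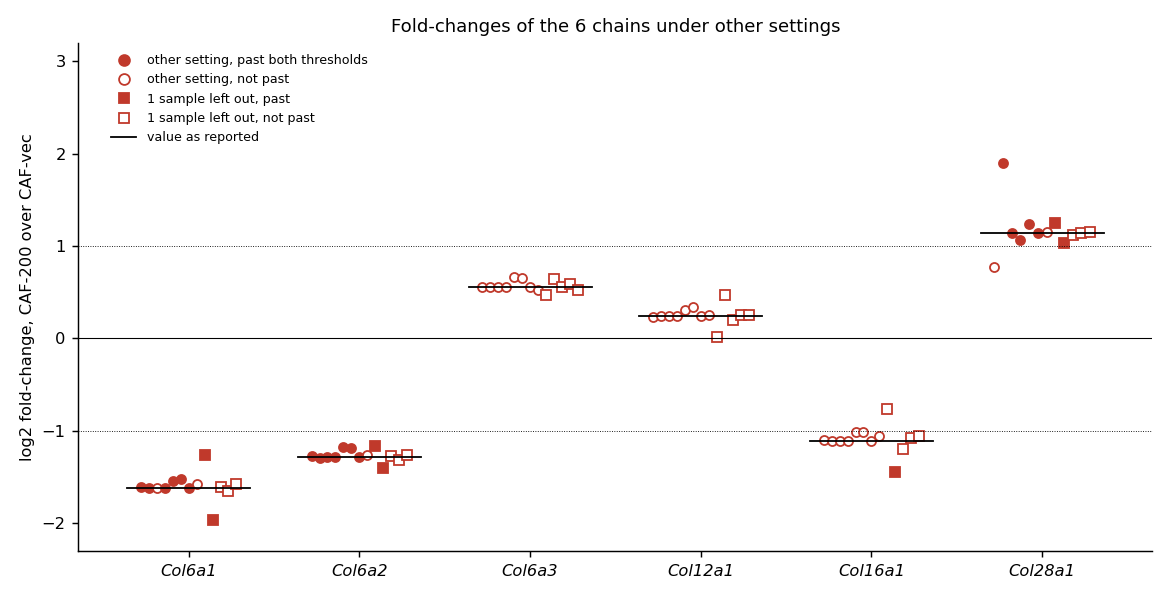
Log2FC (CAF-200 over CAF-vec) of the 6 chains under other settings (circles) and with 1 sample left out (squares), with a line at the value as reported. Filled symbols passed both thresholds, and dotted lines mark 1 and -1. The sign of every chain is the same in all of them, with Col12a1 down to 0.010, and Col6a1 spans -1.97 to -1.27.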

How the data were processed

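Stranded mRNA libraries of 2 CAF-vec and 3 CAF-200 samples were sequenced for the authors by a service provider. The submitters' processing notes name FastQC, cutadapt, Trimmomatic, STAR, RSEM and edgeR with GRCm38 (mm10), with no version given in the sources used here. The authors deposited 1 table of CPM values for 21835 genes, named for trimmed mean of M values normalization. All 5 sample columns were used and 0 were left out. Whole reads could not be recovered, so no count test was run and depth is unknown.

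The 12175 genes that reached 0.5 CPM in 2 or more samples entered the comparison. After adding 0.5 to the CPM and taking log2, a linear model was fitted with lmFit and eBayes (variance trend on) of limma 3.58.1 under R 4.3.3, and *p* values were adjusted by Benjamini-Hochberg over these genes. The procedure was tested on data with known answers. Tables and figures used Python 3.11.15 with pandas 2.3.3, numpy 2.4.6 and matplotlib 3.10.9.

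The chains and the related lists were chosen with earlier results of these data known. Named were all 6 chains, genes of the related lists past both thresholds or else the gene of a list with the highest mean CPM, the 3 genes nearest each chain in pattern and the nearest tested gene on each side. *Bgn*, *Col1a1*, *Col3a1*, *Col14a1*, *Ddr1*, *Antxr1*, *S100b*, *Mbp*, *Des*, *Cspg4*, *Csf1r*, *Cd68*, *Fap*, *Pdgfrb*, *Col27a1*, *Itga10* and genes named for fits with a sample left out were named after their values were seen. Named outside these rules were marker genes past both thresholds, *Zeb1*, *Zeb2*, *Col6a5*, *Col6a6*, *Epcam*, *Cdh5*, *Cd3e*, *Sox10* and *Myh11*. Gene names (21795 matched), lengths and 3′-UTRs came from GENCODE M21 (GRCm38). *Col21a1* is not analysed here. Alternatives were other pseudocounts, filters, scalings and thresholds, no variance trend, each sample left out, a replicate block, coding length and other transcript parts.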

Additional observations from a re-analysis of the deposited data

How the results depend on the processing

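With 2 CAF-vec samples, calls rest on few values, and depth is unknown, so counting error could not be set beside the spread. All 6 chains had the same sign in every alternative fitted. The chains called lower (2) were 1 (*Col6a2*) without a filter on low values, 0 with the replicate block, 3 (with *Col16a1*) at an adjusted *p* under 0.05 and 0 to 3 with 1 sample left out. The chain called higher (1) was 0 with 1 CPM added, 0 at 1 CPM in every sample, where *Col28a1* was not tested, 0 with the replicate block and 0 to 1 with 1 sample left out. Related genes called lower (1) were 0 with 1 CPM added, 0 at 1 CPM in every sample, 0 with the replicate block, 2 after quantile normalization, 2 at an adjusted *p* under 0.05 and 0 to 7 with 1 sample left out, and those called higher (3) were 0 to 5 with 1 sample left out. Over all genes, 286 lower and 289 higher became 70 and 101 with the replicate block, 436 lower when the adjusted *p* had to be under 0.05, 677 and 541 when the log2FC had to be beyond 0.5, 0 to 955 lower and 0 to 625 higher with 1 sample left out. The cause of these changes was not tested, apart from the filter that removed *Col28a1*. With the replicate block, limma gave 2480 lower and 1574 higher genes at an unadjusted *p* under 0.05, *Col6a1*, *Col6a2* and *Col28a1* had log2FC of -1.58, -1.26 and 1.15, and CAF-200 3 does not enter those. The replicate numbers are shared only as numbers, and no source ties them. Deviations of same-numbered samples correlated at 0.25 and 0.13, with 2 pairs. Of the differently numbered pairs, CAF-vec 2 with CAF-200 3 was at 0.12 and the others were at -0.25 to -0.12. The deviations of the 2 controls mirror each other, so these values are not independent. No chain had a 7-base or 8-base seed match in any 3′-UTR, and 2 had a match before it, a search chosen after seeing the data. Per kb of coding length, every level was higher, since coding lengths are shorter than exon unions, and *Col6a1* held 67.0% of collagen VI in CAF-vec and 52.0% in CAF-200. The count models of edgeR and DESeq2 were not run, since the values gave no whole counts.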
